A study of Mus musculus with 4 samples.

Results

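Imprinted genes were described by cell type in late-gestation mouse lung after conditional deletion of Dnmt1, the maintenance DNA methyltransferase, in mesenchyme. The 46 genes were taken from a written list of imprinted genes and looked up by symbol among the 55471 genes of the count tables. All 46 were found and each had at least 1 unique molecular identifier (UMI, 1 captured transcript), among the 32211 genes with any. Single-cell RNA was measured in 4 libraries of whole lung at E18.5, 2 labelled Dnmt1 CKO and 2 labelled wild type. The Dnmt1 CKO genotype was built from Tbx4-rtTA, Tet-O-Cre and the deleted Dnmt1 allele Dnmt1-D/D, and the other genotype is given only as wild type. In such a cross a doxycycline-dependent activator made in Tbx4-expressing cells, mainly lung mesenchyme, switches on Cre, which deletes part of Dnmt1. The labels do not give the doxycycline schedule, nor whether the libraries are separate animals. The p-values of Dnmt1 CKO against wild type therefore measure the spread between these 4 libraries and no more. Tests with the library as a block measure the spread of differences within these libraries. Germline-positive against germline-negative cells rest on the 2 Dnmt1 CKO libraries alone. Epithelial, endothelial and immune cells are called untargeted below, since the driver is not known to act in them.

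An imprinted gene is transcribed mainly from the copy inherited from 1 parent. The choice is set in the germ line by DNA methylation of a control region on the maternal or the paternal chromosome, and Dnmt1 copies that methylation onto the new strand each time a cell divides. At most loci the copy whose control region is unmethylated makes a non-coding RNA or a gene close to that region, and the copy with the methylated region allows its neighbours to be transcribed instead. The members were therefore grouped by textbook allele: 23 whose active copy carries the unmethylated control region (H19, Airn, Peg3, Kcnq1ot1, Meg3, Mest, Ndn and others, here the unmethylated side), 14 whose active copy carries the methylated one (Igf2, Igf2r, Grb10, Zim1, Dlk1, Cdkn1c and others, the methylated side), and 9 that depend on isoform or tissue or lack a germline region (mixed). No methylation and no allele was measured here.

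The start regions of 6 changed members are printed because CpG dinucleotides, in capitals, are the bases whose methylation Dnmt1 maintains. Each is the 250 bases before a RefSeq start on GRCm38.p6, 5′ to 3′ on the gene's strand, for the changed members with the smallest adjusted p in mesenchymal-like cells that had a window. In the order printed they lie at chr17:12769707-12769956 (minus strand), chr11:12037421-12037670 (minus), chr7:6696433-6696682 (minus), chr12:109452573-109452822 (plus), chr17:12741061-12741310 (plus) and chr12:109734731-109734980 (plus). The Grb10 window is the first listed of 2.
Igf2r: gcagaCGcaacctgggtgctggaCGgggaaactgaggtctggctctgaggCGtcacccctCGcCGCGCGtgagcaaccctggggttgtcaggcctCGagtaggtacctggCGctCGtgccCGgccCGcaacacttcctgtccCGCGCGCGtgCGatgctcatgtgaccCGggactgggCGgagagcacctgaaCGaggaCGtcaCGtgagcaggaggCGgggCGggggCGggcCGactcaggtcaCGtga
Grb10: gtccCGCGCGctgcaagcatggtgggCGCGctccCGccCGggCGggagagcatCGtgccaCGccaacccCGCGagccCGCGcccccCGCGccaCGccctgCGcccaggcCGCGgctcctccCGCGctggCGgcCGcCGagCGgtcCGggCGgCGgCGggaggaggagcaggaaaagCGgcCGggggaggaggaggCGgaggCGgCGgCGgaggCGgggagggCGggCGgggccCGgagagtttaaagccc
Zim1: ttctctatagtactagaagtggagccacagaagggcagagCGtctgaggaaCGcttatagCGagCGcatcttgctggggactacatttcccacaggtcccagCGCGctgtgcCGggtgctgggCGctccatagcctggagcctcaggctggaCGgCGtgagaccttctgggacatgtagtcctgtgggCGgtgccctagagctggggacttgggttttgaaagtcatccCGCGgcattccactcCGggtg
Dlk1: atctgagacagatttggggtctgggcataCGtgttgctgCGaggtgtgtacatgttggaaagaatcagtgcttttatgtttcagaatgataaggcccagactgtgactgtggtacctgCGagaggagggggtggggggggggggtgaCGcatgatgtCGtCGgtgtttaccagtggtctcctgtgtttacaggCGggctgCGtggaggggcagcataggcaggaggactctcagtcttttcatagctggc
Airn: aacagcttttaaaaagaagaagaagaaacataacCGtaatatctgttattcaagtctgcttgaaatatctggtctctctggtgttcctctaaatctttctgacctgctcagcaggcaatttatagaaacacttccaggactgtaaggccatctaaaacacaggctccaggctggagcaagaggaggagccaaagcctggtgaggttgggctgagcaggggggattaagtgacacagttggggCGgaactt
Mirg: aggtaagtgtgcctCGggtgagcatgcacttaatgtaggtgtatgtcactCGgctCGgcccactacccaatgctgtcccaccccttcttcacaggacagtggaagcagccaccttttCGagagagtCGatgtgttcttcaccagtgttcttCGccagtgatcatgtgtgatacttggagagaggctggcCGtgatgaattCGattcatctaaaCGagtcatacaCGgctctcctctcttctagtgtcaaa
These windows held 27 CpG for Igf2r, 40 for Grb10, 14 for Zim1, 8 for Dlk1, 2 for Airn and 10 for Mirg, against a median of 10 over the 59 windows of members and of 6 over all 32851 windows. The maternally expressed Igf2r and Grb10, which were lower in the mutant, had the 2 most CpG-dense of the 6 windows. Zim1 and Airn, with 14 and 2 CpG, were lower too, and Dlk1 and Mirg, with 8 and 10, were higher. The windows were picked by gene start and not by control region, so they carry no link to methylation. The hexamer TGCCGC, the core bound by the imprint protector ZFP57, was counted on both strands. It was found in the Zim1 window and in none of the other 5, in 10 of the 59 windows of members (16.9%) and in 8.68% of all windows. Of the 46 members, 38 had a window, and 9 of these had the hexamer in at least 1.

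Cells were grouped by marker genes into mesenchymal-like, mesothelial-like, epithelial-like, endothelial-like and immune-like classes without using the imprinted genes. A further 296 and 441 cells in Dnmt1 CKO, against 184 and 182 in wild type, got no name and are in none of these classes. They formed a cluster led by C1qa and another led by S100a9, both scoring highest for the immune marker list. The immune-like class therefore lacks these cells. The libraries held 49582593 and 54334468 UMIs in Dnmt1 CKO and 48213065 and 56760219 UMIs in wild type, and 4323, 5675, 5111 and 4932 cells passed the filters in that order. Between 33 and 43 barcodes per library also occurred in another library. Mesenchymal-like cells numbered 2580 and 2802 in Dnmt1 CKO and 2808 and 2557 in wild type, and 12 of 12 mesenchymal markers were present in each, with a summed level of 19150 and 20990 CPM (a gene's UMI count scaled to the same total in every library, over the UMIs of the class), against 25791 and 28232 CPM. Mesothelial-like cells numbered 39 and 60, against 35 and 27, and 12 of 12 mesothelial markers were present in each library. Dnmt1 itself was at 9.17 and 12.7 CPM in Dnmt1 CKO mesenchymal-like cells, against 27.2 and 25.5 CPM in wild type (log2 fold change -1.28, SE 0.22, adjusted p = 0.00732, edgeR). The tag is read at the 3′ end of the transcript, so where the deleted part lies elsewhere the level does not by itself show the deletion. In epithelial-like cells Dnmt1 was at 21.9 and 15.3 CPM, against 19.11 and 17.8 CPM.

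For each library, the UMIs of all cells in a class were added up, and Dnmt1 CKO was compared with wild type, 2 libraries against 2, with edgeR's quasi-likelihood test. A gene is called changed at a Benjamini-Hochberg adjusted p under 0.05 over all genes tested in that class. Fold changes are log2, Dnmt1 CKO over wild type. In mesenchymal-like cells 42 of the 46 members passed the low-count filter, and 11 rose and 4 fell, against 13.2% of the 16142 genes tested that were called in either direction (7.24% higher and 5.92% lower). Calcr, Slc22a18, Magel2 and Rasgrf1 were not tested. Of the 22 unmethylated-side members tested 10 rose and 1 fell, with a median log2 fold change of 0.82, against 0.00 over all genes. Of the 12 methylated-side members tested 1 rose and 3 fell, with a median of -0.31. Of the 8 mixed members tested 0 were called by edgeR or DESeq2, 3 had an unadjusted p under 0.05, and the median was -0.18. Sums over a class mix a change in RNA per cell with a change in which subtypes the class holds, and fewer cells of a type and less RNA per cell cannot be told apart in them.

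**Figure D1:**
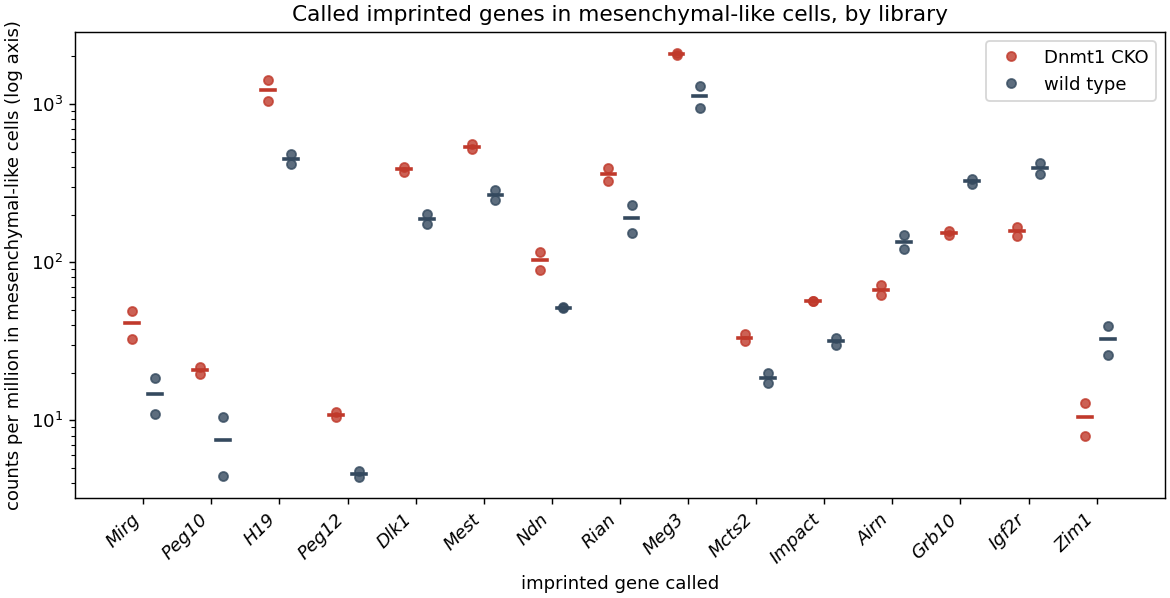
CPM in mesenchymal-like cells (log axis) of the 15 called imprinted genes, ordered by fold change; each point is 1 library, Dnmt1 CKO left and wild type right, and the bar is the mean of 2. From Mirg to Impact both Dnmt1 CKO libraries lay above both wild type libraries, as for H19 at 1421 and 1042, against 420 and 482 CPM; from Airn to Zim1 they lay below, as for Igf2r at 146 and 166, against 362 and 426 CPM.

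At the H19/Igf2 locus on chromosome 7, H19, a maternally expressed non-coding RNA that hosts a microRNA, was at 1421 and 1042 CPM in Dnmt1 CKO, against 420 and 482 CPM in wild type mesenchymal-like cells (1.44, SE 0.23, adjusted p = 0.00489). Both mutant libraries lay above both wild type libraries. Its partner Igf2, the paternally expressed growth factor, was at 2.69 and 1.70 CPM, against 3.42 and 5.59 CPM, and was not called (-1.01, SE 0.35, adjusted p = 0.0963). The Igf2 values rest on few reads: 773 UMIs in all barcodes, and 99.4% of the last 500 exon bases of its annotated gene also belong to another gene model on the same strand, so part of its reads may not have been counted. To compare cells at equal depth, each cell was thinned to 3000 UMIs and shallower cells were left out. H19 was then seen in 63.9% and 55.9% of Dnmt1 CKO mesenchymal-like cells, against 32.7% and 32.8% in wild type (unthinned 75.6% and 64.9%, against 40.5% and 42.2%). In immune-like cells, which are not known to make H19, the thinned shares were 7.91% and 8.08%, against 2.59% and 3.46%. The share of H19-positive mesenchymal-like cells was thus higher in both mutant libraries and far above that in immune-like cells.

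At the Igf2r locus on chromosome 17 both transcripts fell. Igf2r, the maternally expressed receptor that takes up and degrades Igf2, was at 146 and 166 CPM in Dnmt1 CKO, against 362 and 426 CPM in wild type (-1.34, SE 0.19, adjusted p = 0.00284). Airn, the paternally expressed antisense RNA that silences Igf2r on that copy, was at 61.8 and 71.4 CPM, against 121 and 148 CPM (-1.02, SE 0.19, adjusted p = 0.00843). Airn was the 1 called member of the unmethylated side that was lower. Airn and the first part of Igf2r are transcribed from opposite strands of the same DNA. Of the annotated exon bases of either gene, 0% lie in exons of another gene on either strand. The sources used here do not say whether the counting used strand. Slc22a3, a cation transporter gene of the same domain, was at 0.349 and 0.935 CPM, against 3.07 and 4.55 CPM. It would not have passed the low-count filter on the mutant libraries alone, so its difference is given with no test.

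Grb10, an adaptor that damps insulin and growth factor signalling and is maternally expressed outside the brain, was at 157 and 149 CPM in Dnmt1 CKO, against 312 and 336 CPM in wild type (-1.10, SE 0.18, adjusted p = 0.00560). The mutant libraries had about the same level as each other and both were below wild type. Its neighbour on chromosome 11, Ddc, which encodes the decarboxylase that makes dopamine and serotonin, moved the other way, at 23.6 and 18.2 CPM, against 4.29 and 3.22 CPM (2.43, SE 0.26, adjusted p = 0.000625). Thinned to 3000 UMIs, Grb10 was seen in 28.3% and 29.0% of mesenchymal-like cells, against 55.1% and 59.2% (unthinned 41.0% and 38.9%, against 74.4% and 83.1%), and Igf2r in 32.4% and 35.1%, against 59.1% and 62.8% (unthinned 55.2% and 52.2%, against 76.7% and 82.6%). In immune-like cells the thinned shares of both genes lay between 1.85% and 4.85%.

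At the Peg3 domain of chromosome 7 the partners differed. Zim1, a maternally expressed zinc finger gene, was at 7.93 and 12.9 CPM in Dnmt1 CKO, against 26.0 and 39.3 CPM in wild type (-1.65, SE 0.28, adjusted p = 0.00609). Peg3, the paternally expressed zinc finger gene next to it, was at 624 and 574 CPM, against 519 and 700 CPM, with overlapping groups (-0.03, SE 0.21, adjusted p = 0.939). Zfp264, a further zinc finger gene of the domain, was at 0.548 and 0.643 CPM, against 0 in both wild type libraries; it passed the low-count filter only through the mutant libraries, so its difference is given with no test.

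At the Dlk1/Meg3 domain of chromosome 12 genes of both alleles rose. Dlk1, a paternally expressed inhibitor of adipocyte differentiation, was at 401 and 373 CPM in Dnmt1 CKO, against 173 and 202 CPM in wild type (1.03, SE 0.19, adjusted p = 0.00821). Meg3, the maternally expressed non-coding RNA, was at 2042 and 2091 CPM, against 943 and 1292 CPM (0.88, SE 0.23, adjusted p = 0.0357). Both genes were thus higher in the mutant although they are made from opposite parental copies. Of the last 500 exon bases of Meg3, 85.2% also belong to another gene model on the other strand. Rian, a host of small nucleolar RNAs, was at 394 and 327 CPM, against 152 and 230 CPM (0.91, SE 0.22, adjusted p = 0.0303). Mirg, a host of microRNAs, was at 32.7 and 49.2 CPM, against 10.95 and 18.51 CPM (1.46, SE 0.27, adjusted p = 0.00996). Rtl1, the paternally expressed retrotransposon-derived gene between them, was not called, at 1.84 and 1.75 CPM, against 0.695 and 0.990 CPM. Thinned to 3000 UMIs, Dlk1 was seen in 35.4% and 33.8% of mesenchymal-like cells, against 17.4% and 19.12% (unthinned 47.7% and 42.2%, against 24.3% and 28.3%), and in 3.84% to 8.39% of immune-like cells.

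At the Kcnq1ot1 domain neither main partner was called. Kcnq1ot1, the paternally expressed RNA that silences its neighbours, was at 432 and 435 CPM in Dnmt1 CKO, against 390 and 509 CPM in wild type (-0.06, SE 0.20, adjusted p = 0.877). Cdkn1c, the maternally expressed cell cycle inhibitor p57, was at 877 and 677 CPM, against 762.3 and 692 CPM (0.08, SE 0.22, adjusted p = 0.863). The other tested maternal genes of the domain, Ascl2, Phlda2 and Osbpl5, were not called either, with log2 fold changes of 0.62, 0.10 and -0.58. At the Snrpn domain, whose 5 listed members are all paternally expressed, Ndn, which restrains cell growth, was at 89.7 and 116 CPM, against 51.9 and 51.4 CPM (0.98, SE 0.20, adjusted p = 0.0134). Peg12, a Frat-family gene, was at 11.2 and 10.5 CPM, against 4.40 and 4.75 CPM (1.21, SE 0.24, adjusted p = 0.0113). Mkrn3, a ring finger gene, had a log2 fold change of 1.14 and Snrpn, which encodes a splicing protein, of 0.23, both not called. Snhg14, the long paternal host RNA of the same domain, was at 30.3 and 74.4 CPM, against 4.75 and 8.37 CPM (2.97, SE 0.42, adjusted p = 0.00264).

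The remaining called members, Mest, Peg10, Impact and Mcts2, stand at other loci and all 4 are paternally expressed. Mest, which encodes a protein of the alpha/beta hydrolase fold, was at 555 and 517 CPM in Dnmt1 CKO, against 286 and 247 CPM in wild type (0.99, SE 0.21, adjusted p = 0.0150). Its 3′ end overlaps that of Copg2 on the other strand over all of the last 500 exon bases. Peg10, a retrotransposon-derived gene needed in placenta, was at 19.6 and 21.9 CPM, against 4.46 and 10.5 CPM (1.45, SE 0.33, adjusted p = 0.0212). Impact, a regulator of translation under amino acid shortage, was at 56.9 and 56.4 CPM, against 33.1 and 30.0 CPM (0.82, SE 0.18, adjusted p = 0.0192). Mcts2, a retrogene inside H13, was at 34.9 and 31.8 CPM, against 19.99 and 17.1 CPM (0.83, SE 0.19, adjusted p = 0.0236). In all 4 genes both mutant libraries lay above both wild type libraries. Nnat, a small membrane protein gene of neurons, had a larger log2 fold change than Mest, Impact and Mcts2 but was not called at 326 and 242 CPM, against 165 and 67.8 CPM (1.25, SE 0.38, adjusted p = 0.0647). Among the members not called the log2 fold changes lay between -1.01 (Igf2) and 1.25 (Nnat), and Gnas, which encodes a G protein subunit, stood at -0.24 with 2001 and 2089 CPM, against 2493 and 2283 CPM. Of the last 500 exon bases of Gnas, 93.6% are overlapped by gene models on the other strand.

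Leaving out 1 library kept 8 of the 15 calls in all cases: H19, Igf2r, Grb10, Zim1, Dlk1, Mirg, Peg10 and Peg12. The lone library left in its group is then assumed to vary as the others do. The calls of Mcts2, Mest, Ndn and Impact were lost without wild type replicate 2 (adjusted p between 0.0549 and 0.0972). Those of Mcts2, Mest, Meg3, Rian, Airn and Impact were lost without Dnmt1 CKO replicate 1 (0.0625 to 0.146), those of Ndn and Meg3 without Dnmt1 CKO replicate 2 (0.0753 to 0.124) and those of Meg3 and Rian without wild type replicate 1 (0.0649 to 0.0761).

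Genes around and behind imprinting were counted in mesenchymal-like cells against the same 13.2% of all genes called in either direction. Of 48 other genes of imprinted domains 30 were tested, and 6 were called higher and 2 lower, with a median log2 fold change of -0.04. Zfp264 is among the 6 and had to differ once it had passed the filter. Slc22a3 is among the 2 lower and passed the filter with the help of the wild type libraries, where it was higher. Of 26 genes that set or keep imprints 24 were tested, and 1 rose and 1 fell, with a median of -0.05. The one that fell was Dnmt1. The one that rose was Hells, a remodeller needed for DNA methylation, at 57.4 and 31.6 CPM in Dnmt1 CKO, against 14.02 and 12.5 CPM in wild type (1.72, SE 0.28, adjusted p = 0.00522). Uhrf1, which brings Dnmt1 to newly copied CpGs, was at 22.6 and 11.3 CPM, against 9.15 and 5.99 CPM, and was not called (adjusted p = 0.0676), nor was Naa10, an acetyltransferase catalytic subunit (adjusted p = 0.0705, both edgeR). Cycling-like cells, a subtype described below, numbered 207 and 158 in Dnmt1 CKO, against 93 and 37 in wild type. Their part in the Hells and Uhrf1 levels was not tested.

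Mesenchymal-like cells were next split into subtypes. Every cell took the subtype held by most of its 15 nearest wild type cells, and imprinted and germline genes were not used in this step. The matrix fibroblast-like subtype held 561 and 950 cells in Dnmt1 CKO, against 1528 and 1365 in wild type, and its marker sum was 7436 and 12781 CPM, against 22630 and 21425 CPM. The median share of neighbours that gave these mutant cells their name was 73.3% and 86.7%, against 100% in wild type. Most wild type clusters joined into this subtype came largely from 1 replicate. They held 851 and 117, 17 and 640, 35 and 403, and 405 and 18 cells of replicates 1 and 2. A further one held 155 and 150. Xist was among the top 10 genes of those with 851 and 405 cells of replicate 1, and Kdm5d of that with 640 of replicate 2. The part of this difference between the wild type libraries was not tested. Another group held 1171 and 886 cells, against 361 and 372, and is called by its leading genes Capn6 and Dcn. It scored highest for the matrix fibroblast list but got no name, since 2 adventitial fibroblast markers, Dcn and Lum, and no matrix fibroblast marker were among its top 10 genes. Its matrix fibroblast marker sum was 6648 and 7790 CPM, against 14640 and 14497 CPM. In the clustering of all cells together, 1 cluster held 454 and 531 of the Dnmt1 CKO matrix fibroblast-like cells, against 6 and 4 of the wild type ones. The same cluster held 636 and 463 of the Dnmt1 CKO cells led by Capn6 and Dcn, against 3 in wild type replicate 1. These mutant cells of the 2 subtypes were thus not parted there. That clustering left out imprinted genes but did not leave out germline genes. Dazl and Rpl39l were among the top 10 genes of this cluster. A pair of other clusters held 1131 and 803, and 383 and 550, of the wild type matrix fibroblast-like cells. Of the myofibroblast-like cells, 254 of 296 and 191 of 293 Dnmt1 CKO cells lay in a cluster shared with smooth muscle-like cells, against 10 and 8 wild type cells. Another cluster held 41 and 101 of them, against 372 and 321. The assignment was looser for mutant cells, and its part in the differences below was tested only by keeping cells with at least 80% of neighbours in 1 subtype.

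**Figure D2:**
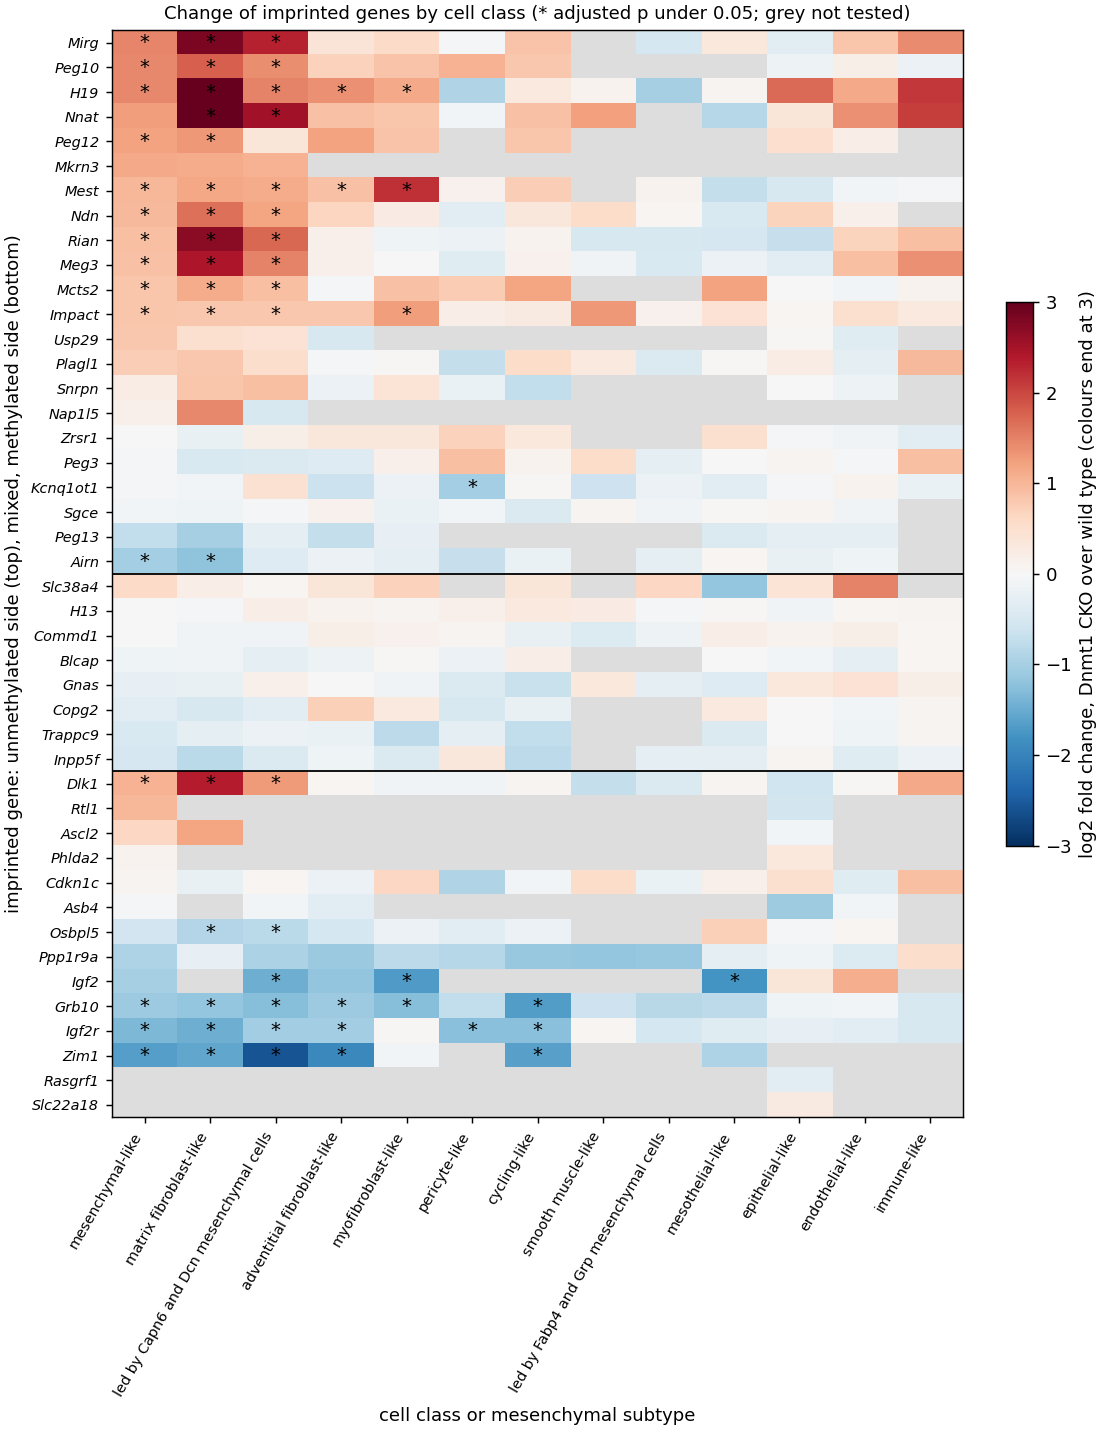
Log2 fold change (colour, Dnmt1 CKO over wild type) of the 44 imprinted genes tested in at least 1 class (rows, grouped by allele class) in mesenchymal-like cells, their 8 subtypes, mesothelial-like and 3 untargeted classes (columns); asterisks mark adjusted p under 0.05 and grey cells were not tested. Calls fill the matrix fibroblast-like and Capn6-led columns (17 and 16) and are absent from epithelial-like, endothelial-like and immune-like columns; the colours end at 3, below H19 at 3.54 and Nnat at 3.06 in matrix fibroblast-like cells.

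In matrix fibroblast-like cells 38 members were tested, and 12 rose and 5 fell, against 13.4% of all 13326 genes called (8.07% higher and 5.36% lower). Of 22 on the unmethylated side 11 rose and 1 fell (median 1.11), and of 8 on the methylated side 1 rose and 4 fell (median -0.56), against a median of -0.01 over all genes. H19 was at 740 and 402 CPM in Dnmt1 CKO, against 53.1 and 41.5 CPM in wild type (3.54, SE 0.33, adjusted p = 3.09e-05). Nnat was at 256 and 190 CPM, against 33.2 and 18.3 CPM (3.06, SE 0.33, adjusted p = 8.83e-05). Both were several-fold higher in each mutant library. At the Dlk1/Meg3 domain 4 of the 5 members rose, and Rtl1, at 1.16 and 2.49 CPM, against 0.218 and 0.0981 CPM, was not tested, on 4 and 12 UMIs in Dnmt1 CKO, against 2 and 1 in wild type. Dlk1 was at 111 and 98.5 CPM, against 22.6 and 16.7 CPM (2.36, adjusted p = 0.000119). Meg3 was at 1222 and 963 CPM, against 199 and 198 CPM (2.42, adjusted p = 0.000111). Rian and Mirg rose by 2.70 and 2.83, at 214 and 166 against 30.7 and 25.9 CPM for Rian and at 15.1 and 27.6 against 2.40 and 3.04 CPM for Mirg. Of the other risers, Ndn (1.66), at 69.9 and 77.9 CPM, against 22.3 and 23.3 CPM, and Peg10 (1.80), at 14.8 and 17.2 CPM, against 2.83 and 5.79 CPM, kept their calls under every alternative tried, whereas Mest (1.16), Peg12 (1.31), Impact (0.82) and Mcts2 (1.12) lost theirs under at least 1. Igf2r was at 149 and 198 CPM, against 426 and 509 CPM (-1.46, adjusted p = 0.00315). Airn (-1.21), Grb10 (-1.16), Zim1 (-1.56) and Osbpl5 (-0.88), a lipid transfer protein gene at 16.8 and 16.2 CPM, against 30.0 and 29.7 CPM, also fell.

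Among the matrix fibroblast-like calls, 9 held in each of the 4 fits with 1 library left out. Without Dnmt1 CKO replicate 1 those of Mcts2, Mest, Zim1, Osbpl5, Grb10, Airn and Impact were lost (adjusted p between 0.0817 and 0.375). Without wild type replicate 2 those of Mcts2, Mest, Zim1, Peg12, Osbpl5 and Impact were lost (0.0688 to 0.153), without wild type replicate 1 those of Peg12, Osbpl5 and Impact (0.0637 to 0.111), and without Dnmt1 CKO replicate 2 those of Peg12 and Osbpl5 (0.108 to 0.123). With at least 80% of neighbours in 1 subtype 10 members were called, and Mcts2, Zim1, Peg12, Osbpl5, Grb10, Airn and Impact were not (0.0576 to 0.166). DESeq2 did not call Peg12, Osbpl5 and Impact (0.0800 to 0.195).

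In the cells led by Capn6 and Dcn 39 members were tested, and 11 rose and 5 fell, against 13.1% of all genes called (6.76% higher and 6.37% lower). Unmethylated-side members made up 10 of the 11 that rose, and all 5 that fell were on the methylated side. H19 was at 1269 and 991 CPM in Dnmt1 CKO, against 394 and 402 CPM in wild type (1.49, SE 0.20, adjusted p = 0.00157). Nnat (2.51) was at 154 and 95.4 CPM, against 27.8 and 15.8 CPM, and Dlk1 (1.27) at 445 and 468 CPM, against 201 and 173 CPM. Meg3, Rian (1.72), Mirg (2.31), Mest (1.12), Ndn (1.17), Impact (0.81), Mcts2 (0.91) and Peg10 (1.40) rose as well. Zim1 was at 5.89 and 12.3 CPM, against 40.4 and 67.7 CPM (-2.59, SE 0.33, adjusted p = 0.00117). Igf2r (-1.04) was at 159 and 158 CPM, against 317 and 330 CPM, and Grb10 (-1.29) at 161 and 127 CPM, against 329 and 368 CPM. Igf2 (-1.46) and Osbpl5 (-0.81) were called but not without either wild type replicate or without Dnmt1 CKO replicate 2. Igf2 was at 2.79 and 1.51 CPM, against 4.58 and 8.57 CPM. It would not have passed the low-count filter on the mutant libraries alone. Without wild type replicate 2 the count fell to 10, with Mcts2, Peg10, Ndn and Impact also lost (adjusted p from 0.0527), and without wild type replicate 1 Mcts2 and Peg10 were lost (from 0.0522). DESeq2 did not call Mcts2 (0.0786), Igf2 (0.221) and Osbpl5 (0.105). With at least 80% of neighbours in 1 subtype Peg10 (0.0516), Igf2 (0.0729) and Osbpl5 (0.0575) were lost, and with RLE scaling Peg10 (0.0524). The matrix fibroblast markers of these cells were lower in both mutant libraries, as given above, and their part in these values was not tested.

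Adventitial fibroblast-like, myofibroblast-like, cycling-like and pericyte-like cells had 5, 5, 3 and 2 called members of 37, 35, 33 and 30 tested, against 2.48%, 5.05%, 2.15% and 2.5% of all genes. In adventitial fibroblast-like cells H19 was at 1681 and 1283 CPM in Dnmt1 CKO, against 473 and 650 CPM in wild type (1.38, SE 0.23, adjusted p = 0.00923). Zim1 was at 42.6 and 27.1 CPM, against 117 and 149 CPM (-1.93, SE 0.25, adjusted p = 0.00215). H19 again was above and Zim1 below wild type in both libraries. Igf2r fell (-1.04), at 109 and 114 CPM, against 222 and 236 CPM, and Grb10 fell (-1.09), at 228 and 190 CPM, against 435 and 449 CPM. Mest rose (0.87), at 544 and 513 CPM, against 295 and 277 CPM. Dlk1 and Meg3 did not pass, with log2 fold changes of 0.06 and 0.15, from wild type levels of 940 and 1056 CPM for Dlk1. Without wild type replicate 2 the calls of Mest, Grb10 and Igf2r were lost (0.0849 to 0.277), as was that of Mest without wild type replicate 1 (0.0678). Without wild type replicate 2 this left 2 calls, and 3 were left with at least 80% of neighbours in 1 subtype, where Mest (0.0909) and Grb10 (0.0775) were lost.

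In myofibroblast-like cells, the contractile cells of the forming alveolar walls, Mest was at 126 and 126 CPM in Dnmt1 CKO, against 37.8 and 18.3 CPM in wild type (2.19, SE 0.32, adjusted p = 0.00223). H19 was at 3816 and 3183 CPM, against 1627 and 1700 CPM (1.13, SE 0.20, adjusted p = 0.00725). Impact rose (1.25), at 34.9 and 41.3 CPM, against 16.7 and 15.4 CPM. Grb10 was at 221 and 231 CPM, against 613 and 527 CPM (-1.27, SE 0.22, adjusted p = 0.00577), whereas the groups overlapped for Igf2r, at 105 and 75.7 CPM, against 82.6 and 101 CPM (0.04, SE 0.25). Igf2 is counted among the calls (-1.69) on 9 UMIs in Dnmt1 CKO and 41 in wild type. It was at 2.79 and 1.88 CPM, against 9.72 and 11.1 CPM. It passed the low-count filter only through the wild type libraries, so its call carries no weight as a test. Its call was lost whichever of the 4 libraries was left out and under DESeq2 (adjusted p up to 0.398) and with at least 80% of neighbours in 1 subtype (0.0730). DESeq2 did not call Impact either (0.145). Without wild type replicate 2 those of H19 and Impact were lost too (adjusted p from 0.0561), and without Dnmt1 CKO replicate 1 that of Grb10 (0.0514). Myofibroblast markers in these cells summed to 3036 and 4660 CPM in Dnmt1 CKO, against 7913 and 6968 CPM in wild type, and smooth muscle markers to 7581 and 9952 CPM, against 7531 and 7230 CPM. Their part in these values was not tested.

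In cycling-like cells Grb10 was at 115 and 101 CPM in Dnmt1 CKO, against 337 and 365 CPM in wild type (-1.67, SE 0.21, adjusted p = 0.00258). Igf2r (-1.26), at 137 and 167 CPM, against 278 and 470 CPM, and Zim1 (-1.64), at 7.02 and 9.18 CPM, against 29.7 and 26.1 CPM, fell as well. On the mutant libraries alone Zim1 would not have passed the low-count filter here. All 3 genes are on the methylated side, and Grb10 alone kept its call in each fit with 1 library left out: those of Igf2r and Zim1 were lost without wild type replicate 2 (0.118 for Igf2r and 0.0728 for Zim1) and without Dnmt1 CKO replicate 1 (0.116 and 0.185 in that order), and that of Zim1 without wild type replicate 1 (0.168), under DESeq2 (0.326) and with at least 80% of neighbours in 1 subtype (0.0609). Cycling-like cells numbered 37 in wild type replicate 2, where Igf2r was highest. Pericyte markers in cycling-like cells summed to 551 and 1245 CPM, against 1533 and 4996 CPM, and matrix fibroblast markers to 3732 and 5478 CPM, against 7193 and 3416 CPM, and their part was not tested. In pericyte-like cells, which wrap capillaries, Igf2r was at 242 and 377 CPM, against 662 and 901 CPM (-1.25, SE 0.29, adjusted p = 0.00798). Kcnq1ot1 was at 391.9 and 490 CPM, against 850 and 1037 CPM (-1.02, SE 0.28, adjusted p = 0.0318). Pericyte markers in these cells summed to 7132 and 10403 CPM, against 14922 and 12873 CPM, lowest in the library lowest in Igf2r, and their part was not tested. H19 had a log2 fold change of -0.91 there and was not called, at 332 and 359 CPM, against 634 and 733 CPM. Neither pericyte call held without wild type replicate 2 (0.0516 and 0.142) or without Dnmt1 CKO replicate 1 (0.723 and 0.836), and that of Kcnq1ot1 was lost without Dnmt1 CKO replicate 2 (0.0535), where 4 members were called in all. With at least 80% of neighbours in 1 subtype that of Igf2r was lost (0.0523).

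No member was called by edgeR or DESeq2 in smooth muscle-like cells or in the mesenchymal cells led by Fabp4 and Grp, with 0.631% and 0.389% of all genes called. At an unadjusted p under 0.05 there were 3 of 18 and 3 of 22 tested, against 9.1% and 6.47% of all genes. Both groups were small, at 21 to 41 and 37 to 63 cells per library. Many mutant cells of the Fabp4-led group held no germline RNA, as counted below, and the part of this was not tested. Without Dnmt1 CKO replicate 2 there were 1 and 2 calls. In the Fabp4-led cells H19 was at 785 and 1523 CPM in Dnmt1 CKO, against 2128 and 2607 CPM in wild type (-1.01, adjusted p = 0.434), and Grb10 at 245 and 307 CPM, against 469 and 537 CPM (-0.83, adjusted p = 0.523).

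**Figure D3:**
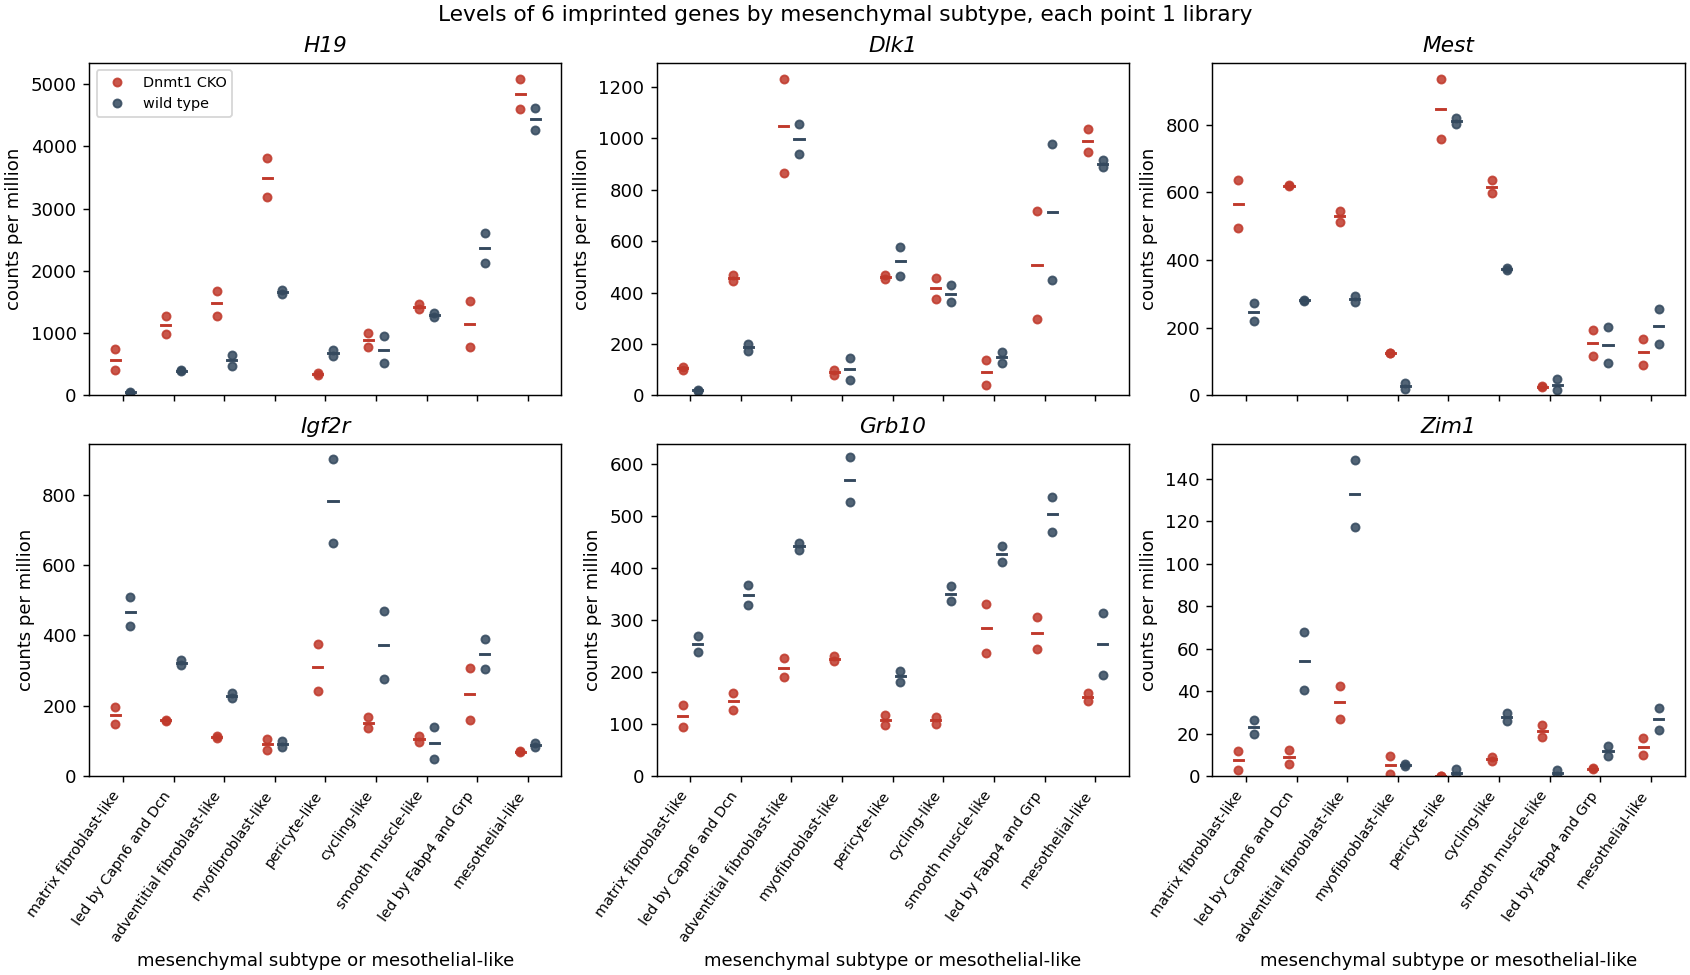
CPM (linear axes from 0) of 6 imprinted genes in 8 mesenchymal subtypes and mesothelial-like cells; each point is 1 library, Dnmt1 CKO left and wild type right, and the bar is the mean of 2. H19 was at 740 and 402 CPM in Dnmt1 CKO matrix fibroblast-like cells, against 53.1 and 41.5 CPM in wild type, while in mesothelial-like cells it was at 4600 and 5087 CPM, against 4267 and 4612 CPM; Grb10 was lower in both mutant libraries in each panel column.

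Whether the change differed between subtypes was tested for each gene over all 8 at once, with the library as a block. The difference was called for 15 of 38 members tested, against 8.97% of all genes. H19 (adjusted p = 9.85e-10), Nnat (1.32e-07), Meg3 (1.24e-07), Rian (1.24e-07), Ndn (5.08e-06), Mirg (4.22e-05), Mest (0.000126), Dlk1 (0.000179), Plagl1 (0.000244) and Kcnq1ot1 (0.000943) were called in each of the 5 alternatives run. The calls of Igf2r (0.00348), Airn (0.0196), Peg3 (0.0235), Gnas (0.0284) and Cdkn1c (0.0354) were lost without Dnmt1 CKO replicate 1 (0.118 to 0.593), and those of Airn, Gnas and Cdkn1c also without wild type replicate 2 (0.101 to 0.379). Grb10 and Zim1, which fell in 5 and 4 subtypes, were not called (0.117 and 0.0694). Mutant cells of the subtypes also differed in how many held germline RNA, as counted below. The part of this in the differences between subtypes was not tested. The wild type level of H19, Dlk1 and Meg3 in matrix fibroblast-like cells, where they rose most, was below that in every other subtype: Dlk1 was at 22.6 and 16.7 CPM there, against 940 and 1056 CPM in wild type adventitial fibroblast-like cells, where it did not pass the test.

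Mesothelial-like cells, which cover the lung surface, had 32 members tested and 1 called, against 0.518% of all 8684 genes. That member was Igf2, at 28.8 and 21.4 CPM in Dnmt1 CKO, against 74.7 and 104 CPM in wild type (-1.80, SE 0.29, adjusted p = 0.0319), on 48 and 119 UMIs. It did not pass with wild type replicate 2 left out (adjusted p = 0.105) or under DESeq2 (0.0813), and the shared 3′ end of Igf2 applies here too. H19 was at 4600 and 5087 CPM, against 4267 and 4612 CPM (0.08, SE 0.23, adjusted p = 0.937). Dlk1 and Meg3 did not pass either, at 948 and 1036 against 887 and 917 CPM for Dlk1 and at 2117 and 2717 against 2690 and 2576 CPM for Meg3. Dnmt1 was at 9.60 and 18.8 CPM, against 52.8 and 49.3 CPM, and the germline genes used below summed to 480 and 939 CPM, against 9.11 and 4.0002 CPM, so both mutant libraries were below wild type in Dnmt1 and above it in germline RNA. Mesenchymal markers in these cells summed to 9262 and 8099 CPM, against 15494 and 16814 CPM, and erythroid markers to 13156 and 360 CPM, against 346 and 212 CPM; their part in these values was not tested. The change in mesenchymal-like cells minus that in mesothelial-like cells was called for 7 of 43 members, against 1.66% of all genes: H19 (1.32, SE 0.28), Nnat (2.21), Meg3 (1.05), Rian (1.42), Mest (1.70), Ndn (1.42) and Slc38a4 (1.79). The differences of Nnat and Ndn were called in each fit with 1 library left out. Those of H19, Meg3 and Rian were lost without wild type replicate 1 (0.176 to 0.716), those of H19, Meg3, Mest and Slc38a4 without wild type replicate 2 (0.111 to 0.335), and that of Slc38a4 without Dnmt1 CKO replicate 1 (0.0801). Slc38a4, an amino acid transporter gene, was at 39.1 and 33.5 CPM, against 23.1 and 24.9 CPM, in mesenchymal-like cells and at 15.6 and 17.0 CPM, against 27.3 and 48.0 CPM, in mesothelial-like cells.

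In the 3 untargeted classes edgeR called no member: 0 of 41 in epithelial-like, 0 of 36 in endothelial-like and 0 of 25 in immune-like cells, against 0%, 0.0632% and 0% of all genes. DESeq2 called 0, 0 and 1, against 26, 14 and 9 over all genes. Leaving out Dnmt1 CKO replicate 1 gave calls of members in endothelial-like and immune-like cells, and leaving out replicate 2 in immune-like cells. In each of these fits more genes were called over all genes too, and the lone mutant library is assumed to vary as the others do. At an unadjusted p under 0.05 there were 2, 6 and 4 members, against 3.09%, 3.96% and 2.19% of all genes. H19 had log2 fold changes of 1.71, 1.14 and 2.12 in these classes. It was at 319 and 82.9 CPM in Dnmt1 CKO epithelial-like cells, against 80.2 and 38.0 CPM in wild type, at 750 and 601 CPM, against 215 and 413 CPM, in endothelial-like cells, and at 53.4 and 52.5 CPM, against 9.42 and 14.8 CPM, in immune-like cells. In each class both mutant libraries lay above both wild type libraries, beside a difference in mesenchymal-like cells in the same suspensions. The 12 mesenchymal markers summed to 198 and 356 CPM, against 400 and 518 CPM, in epithelial-like cells, to 1964 and 3560 CPM, against 3256 and 3694 CPM, in endothelial-like cells, and to 1846 and 1594 CPM, against 1728 and 1801 CPM, in immune-like cells, with none of the 12 at 0 in every library. The germline genes described below summed to 14.998 and 22.6 CPM, against 1.62 and 2.64 CPM, in epithelial-like, to 31.6 and 53.6 CPM, against 2.39 and 2.65 CPM, in endothelial-like and to 29.5 and 34.5 CPM, against 5.07 and 12.3 CPM, in immune-like cells. The part of free RNA from mesenchymal cells in these H19 values was not tested. Igf2r, Grb10 and Airn were within 0.5 on the log2 scale of no change in all 3 classes where tested: Igf2r was at 46.2 and 48.8 CPM, against 45.9 and 66.9 CPM, in epithelial-like cells and at 119 and 131 CPM, against 144 and 174 CPM, in endothelial-like cells. Dlk1 and Meg3 varied between libraries of 1 group in immune-like cells, at 50.9 and 232 CPM, against 123 and 13.99 CPM, for Dlk1. Epithelial markers there summed to 2374 and 7914 CPM, against 4243 and 459 CPM, in the same order of libraries.

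The change in mesenchymal-like cells minus that in an untargeted class was then tested gene by gene. Against epithelial-like cells 8 of 44 members were called, with 2.91% of all genes: Igf2r (-1.10, SE 0.14, adjusted p = 0.0167), Airn (-0.80), Grb10 (-0.96), Dlk1 (1.71), Meg3 (1.27), Rian (1.61), Mirg (1.89) and Peg10 (1.61). In epithelial-like cells Dlk1 was at 861 and 1686 CPM in Dnmt1 CKO, against 1864 and 1939 CPM in wild type, so its difference joins a rise in one class and a lower mean in the other. Those of Igf2r, Rian and Mirg were called in each fit with 1 library left out. The other 5 were lost without wild type replicate 1 (0.0556 to 0.181) and without wild type replicate 2 (0.0684 to 0.159), and Peg10 without Dnmt1 CKO replicate 1 (0.0594). Without Dnmt1 CKO replicate 2 there were 13. Against endothelial-like cells 10 of 43 were called, with 5.85% of all genes: Mest (1.13, SE 0.11, adjusted p = 0.000737), Igf2r (-0.98, adjusted p = 0.00228), Grb10 (-0.95), Airn (-0.83), Igf2 (-2.12), Plagl1 (1.06), Ndn (0.86), Mcts2 (0.94), Peg10 (1.30) and Gnas (-0.61). The first 5 of these were called in each fit with 1 library left out. Those of Plagl1, Ndn and Mcts2 were lost without wild type replicate 1 (0.0535 to 0.0750), those of Gnas and Peg10 without wild type replicate 2 (0.0909 to 0.150), and that of Peg10 without Dnmt1 CKO replicate 2 (0.0967), where 17 were called in all. Plagl1, a zinc finger regulator of growth genes, was at 489 and 405 CPM, against 213 and 322 CPM, in mesenchymal-like cells and at 112 and 90.5 CPM, against 126 and 121 CPM, in endothelial-like cells. Igf2 was at 8.28 and 10.6 CPM, against 2.71 and 5.997 CPM, in endothelial-like cells, with the opposite direction to mesenchymal-like cells. Against immune-like cells 0 of 43 were called, with 2.15% of all genes, and 11 had an unadjusted p under 0.05. No other tool was run for these differences, and RLE scaling also gave 0. Without wild type replicate 1, wild type replicate 2 or Dnmt1 CKO replicate 1 there were 2, 2 and 3.

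Mesenchymal-like cells of the mutant were last split by whether they held RNA of germline genes, which DNA methylation is known to keep silent in body cells. A cell of at least 2000 UMIs was called germline-positive with at least 3 UMIs over 17 germline genes, such as Dazl, and negative with 0, and cells with 1 or 2 were left out. These genes were picked because earlier results of these data showed them raised in the mutant, and no imprinted gene is among them. In Dnmt1 CKO 2108 and 1654 cells were positive and 232 and 715 negative, at medians of 7480.5 and 6176 UMIs for positive and 7054 and 5652 UMIs for negative cells. In wild type 86 and 88 cells were positive, mostly through Asz1. Dnmt1 was at 5.58 and 5.02 CPM in germline-positive cells and at 42.0 and 29.0 CPM in germline-negative cells, against 27.2 and 25.6 CPM in wild type. So the negative cells had Dnmt1 RNA at or above the wild type level. Cells led by Capn6 and Dcn made up 49.2% and 43.5% of the positive and 27.2% and 13.99% of the negative cells, and matrix fibroblast-like cells 19.4% and 26.2% of the positive and 21.1% and 38.9% of the negative cells. The subtypes thus differed in their mix. Cells led by Capn6 and Dcn held 1038 and 720 positive and 63 and 100 negative cells. Pericyte-like cells held 44 and 23 positive and 28 and 61 negative cells, and Fabp4-led cells 20 and 11 positive and 11 and 36 negative.

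**Figure D4:**
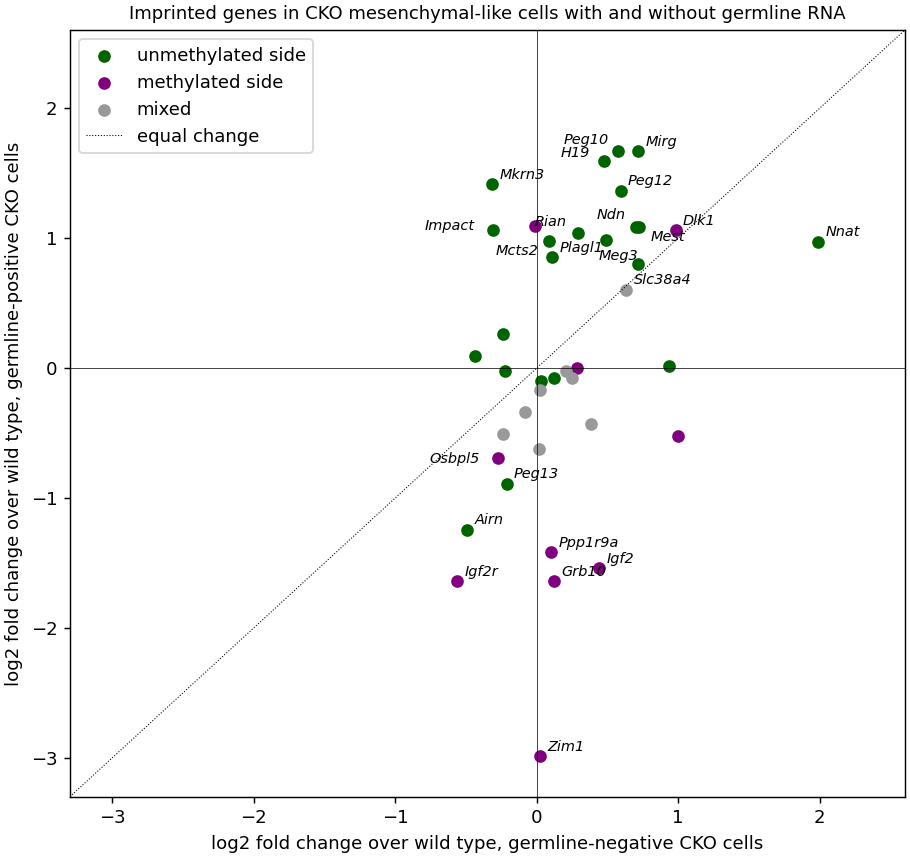
Log2 fold change over wild type of each imprinted gene in germline-positive (vertical) and germline-negative (horizontal) Dnmt1 CKO mesenchymal-like cells, coloured by allele class; named genes passed the test in at least 1 comparison and the dotted line marks equal change. Both axes use the same 2 wild type libraries. Zim1 lay at -2.99 vertically and 0.02 horizontally, Grb10 at -1.64 and 0.12, and Nnat at 0.97 and 1.99.

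Germline-positive cells against all wild type mesenchymal-like cells of that depth had 14 members up and 8 down of 42 tested, against 21.1% of all genes. Of 22 on the unmethylated side 12 rose and 2 fell (median 0.98), and of 12 on the methylated side 1 rose and 6 fell (median -0.61), against a median of 0.00 over all genes. Of these 22 calls, those of Igf2, Meg3, Mkrn3, Ndn, Osbpl5, Peg13, Plagl1, Ppp1r9a and Slc38a4 were lost in at least 1 of the 4 fits with 1 library left out (adjusted p between 0.0507 and 0.291). Germline-negative cells against wild type had 2 members up and none down of 41, against 1.57% of all genes, with medians of 0.29 and 0.11 for the 2 sides. Those 2 were Nnat (1.99, SE 0.33, adjusted p = 0.00750), at 484 and 444 CPM, against 165 and 67.9 CPM, and Dlk1 (0.98, SE 0.22, adjusted p = 0.0342), at 412 and 322 CPM, against 173 and 202 CPM. Neither call held without wild type replicate 1 (0.280 and 0.298) or wild type replicate 2 (0.452 and 0.497), and that of Dlk1 was lost without Dnmt1 CKO replicate 1 (0.312), with the germline list without Asz1 (0.0641) and within matrix fibroblast-like cells (0.809). The 2 comparisons share their wild type libraries, so the direct comparison of positive with negative cells of the same libraries follows.

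Between germline-positive and germline-negative cells of the same mutant libraries 14 members were higher and 13 lower in positive cells of 41 tested, against 30.7% of all genes, with the library as a block. On the unmethylated side 14 of 22 were higher and 3 lower (median 0.53), and on the methylated side 0 of 11 were higher and 7 lower (median -1.06). Zim1 was at 4.94 and 2.96 CPM in positive cells, against 34.3 and 31.1 CPM in negative cells (-3.01, SE 0.21, adjusted p = 4.33e-08). Grb10 was at 132 and 78.2 CPM, against 389 and 310 CPM (-1.79, SE 0.10, adjusted p = 4.77e-09). Wild type levels were 25.8 and 39.2 CPM for Zim1 and 311 and 337 CPM for Grb10. Igf2r was at 130 and 125 CPM, against 268 and 258 CPM (-1.06, SE 0.09, adjusted p = 2.38e-07), and Airn at 59.6 and 54.9 CPM, against 79.9 and 107 CPM (-0.74, SE 0.12, adjusted p = 0.000352). H19 was at 1500 and 1257 CPM in positive cells, against 706 and 533 CPM in negative cells (1.15, SE 0.07, adjusted p = 2.00e-08). In negative cells neither library reached the wild type levels of Igf2r (361 and 426 CPM) or Airn (121 and 148 CPM), and both exceeded those of H19 (419 and 483 CPM) and Mest (508 and 371 CPM, against 286 and 248 CPM), none of the 4 called. Impact, at 61.2 and 72.7 CPM, against 29.0 and 22.5 CPM, differed by 1.44.

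The Dlk1/Meg3 domain did not move as one in this split. Dlk1 was at 392.2 and 398 CPM in positive cells, against 412 and 322 CPM in negative cells (0.11, SE 0.09, adjusted p = 0.406). Meg3 (0.52), Rian (0.78) and Mirg (1.04) were higher in positive cells, Meg3 at 2066 and 2346 CPM, against 1587 and 1471 CPM. Nnat went the other way, at 313 and 157 CPM in positive cells, against 484 and 444 CPM in negative cells (-1.08, SE 0.14, adjusted p = 3.02e-05), and so did Gnas (-0.79), at 1886 and 1706 CPM, against 3028 and 3132 CPM. Peg10 (1.23), Mcts2 (0.90), Plagl1 (0.76), Ndn (0.43) and Mest (0.40) were higher in positive cells. Within matrix fibroblast-like cells alone 18 members were called, against 2046 of all 10293 genes tested. Zim1, Grb10, Igf2r, Airn, H19 and Impact were among the 18, and Ppp1r9a, Peg12, Kcnq1ot1, Cdkn1c and Commd1 were not called (edgeR adjusted p between 0.0699 and 0.697). Positive and negative cells of 1 library share their suspension and sequencing run, and sorting them by raised germline RNA also sorts them by whatever else goes with it, which cannot be told apart here.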

How the data were processed

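Whole-lung suspensions of embryonic day 18.5 mice were sequenced with a 10x 3′ kit. The authors deposited raw UMI counts per gene and barcode, made with Cell Ranger 3.1.0 on GRCm38.p6 per the submitters' processing notes, and whether counting used strand is not given in the sources used here. Cells with at least 500 genes and at most 20% mitochondrial UMIs were kept and Scrublet doublets were removed at an assumed rate of 6%. Cells were clustered with scanpy 1.11.5 and Leiden (resolution 1.0, 2000 variable genes, 30 components, 15 neighbours) without imprinted genes, and clusters were named from marker lists, with score limits set after the clusters were seen. Counts were summed per library and class and tested with edgeR 4.0.16 (TMM, filterByExpr, prior count 2). The 2 groups hold 2 libraries each, so an exact permutation test could not go below p = 0.333. Differences between classes and between germline-positive and germline-negative cells had the library as a block. Alternatives were DESeq2 1.42.0, RLE scaling, no low-count filter, other cell filters and clusterings, a replicate block and leaving out each library. Scripts were tested on simulated data. Shares of cells were compared after thinning to 3000 UMIs. The members, the gene lists and the tests were chosen with earlier results of these data known. By the rule used, values are given for the members called in a class, a subtype or a difference between classes and for both partners of 5 loci, and at most 4 genes of each further list are named. Start regions of 6 genes come from RefSeq on GRCm38.p6.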

Additional observations from a re-analysis of the deposited data

Results flagged for a closer look

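The results in this part were picked out because the change between Dnmt1 CKO and wild type itself differed between cell classes or subtypes, by a test of that difference with the library as a block (edgeR, adjusted p under 0.05). Values are differences of log2 fold changes.

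For mesenchymal-like minus epithelial-like cells they were Igf2r (-1.10), Airn (-0.80), Grb10 (-0.96), Dlk1 (1.71), Meg3 (1.27), Rian (1.61), Mirg (1.89) and Peg10 (1.61). Epithelial-like cells held Meg3 at 2582 and 4008 CPM in Dnmt1 CKO, against 3915 and 4352 CPM in wild type. For mesenchymal-like minus endothelial-like cells they were Igf2 (-2.12), Igf2r (-0.98), Airn (-0.83), Grb10 (-0.95), Gnas (-0.61), Mest (1.13), Plagl1 (1.06), Ndn (0.86), Mcts2 (0.94) and Peg10 (1.30). For mesenchymal-like minus mesothelial-like cells they were Nnat (2.21), Slc38a4 (1.79), Mest (1.70), Ndn (1.42), Rian (1.42), H19 (1.32) and Meg3 (1.05).

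Between the 8 mesenchymal subtypes the change differed for H19 (adjusted p = 9.85e-10, edgeR here and for the rest), Meg3 (1.24e-07), Rian (1.24e-07), Nnat (1.32e-07), Ndn (5.08e-06), Mirg (4.22e-05), Mest (0.000126), Dlk1 (0.000179), Plagl1 (0.000244), Kcnq1ot1 (0.000943), Igf2r (0.00348), Airn (0.0196), Peg3 (0.0235), Gnas (0.0284) and Cdkn1c (0.0354). H19 spanned both directions there, from 3.54 in matrix fibroblast-like cells to -1.01 in the cells led by Fabp4 and Grp, where it was not called.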

How the results depend on the processing

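Of 1086 values of called members under the alternatives 917 kept direction and call, 166 kept direction without the call and 3 reversed. The reversed ones were Snrpn (0.10), Inpp5f (0.19) and Zrsr1 (-0.27), none called, in germline-positive against germline-negative cells within matrix fibroblast-like cells, an alternative chosen after seeing the data, as was the germline list without Asz1. The cause was not tested. The ranges of the counts of called members with 1 library left out were 10 to 15 in mesenchymal-like, 0 to 1 in mesothelial-like, 0 to 2 in endothelial-like, 0 to 6 in immune-like, 2 to 7 in adventitial fibroblast-like, 1 to 4 in cycling-like, 10 to 16 in Capn6-led, 0 to 2 in Fabp4-led, 11 to 17 in matrix fibroblast-like, 2 to 6 in myofibroblast-like, 0 to 4 in pericyte-like and 0 to 1 in smooth muscle-like cells. They were 16 to 19 for germline-positive and 0 to 3 for germline-negative cells against wild type, and for mesenchymal-like cells minus another class 3 to 13 (epithelial-like), 7 to 17 (endothelial-like), 0 to 3 (immune-like) and 4 to 8 (mesothelial-like). Between subtypes the range was 11 to 16. Leaving out a library was not run for germline-positive against germline-negative cells, since no residual degree of freedom remains.

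DESeq2 gave 0 in mesothelial-like cells, against 1 by edgeR, 1 in immune-like, against 0, and 3 in myofibroblast-like, against 5. Over all genes it called 36, 9 and 362 in that order, against 45, 0 and 536 by edgeR. Without the low-count filter there were 1, 2 and 4 in epithelial-like, endothelial-like and immune-like cells, against 0 in each. All genes called then numbered 178, 147 and 131, against 0, 8 and 0 with the filter. With at least 80% of neighbours in 1 subtype there were 3 in adventitial fibroblast-like, against 5, 10 in matrix fibroblast-like, against 17, and 1 in pericyte-like cells, against 2. Calls over all genes fell too, to 106, 707 and 112 from 250, 1790 and 197. Without Asz1 there was 1 in germline-negative cells, against 2, beside 201 over all genes, against 229. A replicate block gave 22 calls in mesenchymal-like cells, against 15, 1 in epithelial-like and 2 in endothelial-like, against 0, 5 in pericyte-like, against 2, and 1 in smooth muscle-like cells, against 0. Calls over all genes rose as well, to 3414, 156, 169, 341 and 96 in that order, from 2124, 0, 8, 197 and 24. The labels do not say that a number pairs libraries, and the deviations of same-numbered libraries correlated at 0.10 in mesenchymal-like, 0.02 in mesothelial-like, 0.32 in epithelial-like, 0.11 in endothelial-like and -0.08 in immune-like cells, over all genes tested.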
